A study of Rattus norvegicus with 8 samples.

Results

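The 10 genes described here build the synapse and its fast transmitters: the release genes Snap25, Syt1 and Syp, the inhibitory genes Gad1, Gad2, Slc32a1 and Slc6a5, the excitatory genes Slc17a6 and Slc17a7, and the neuronal nuclear marker Rbfox3. They were chosen by name. The authors' table held values for 12765 gene symbols, and 15159 symbols could be matched on the array. Where several probes of a gene had values, the one with the highest mean across that table's 8 columns was read. Of the 10, 7 had a value; the matched probe of Slc17a7 lay outside the table and was not well above background on any of the 8 arrays, and no probe was matched to Syp or Rbfox3, so these 3 are named only.

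Total RNA was measured on 8 one-colour arrays, 1 for each group. The cord groups, both of day 5, were a dorsal hemisection and a C-level control, the nerve groups of day 1 were the distal segment of the cut left sciatic nerve, its proximal segment and the uncut right nerve (contralateral), and each of these 5 samples pooled 3 adult female Sprague-Dawley rats. The labels do not say further what the dorsal hemisection and the C-level stand for, so injury, cord level and the part of the cord taken cannot be told apart. Cord labels count days from an injection and the protocol counts them from injury; the right nerve's label names PBS, and the injected agent of the cord groups is not stated in any source used here. The 3 Schwann cell samples were passaged primary cultures from sciatic nerves of Sprague-Dawley rats at postnatal day 1 to 3, purified from fibroblasts and grown with forskolin. They received S100A8/A9, a complex of calcium-binding proteins of myeloid cells, at 5 µg/ml for 1 h or 24 h, or were unstimulated for 24 h, and this single unstimulated culture serves both times.

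Samples are named by the column headings of the value table. Each column ranked almost as 1 scan did, with Spearman rho across probes of at least 0.99978, and for 7 of the 8 columns that scan is recorded under another sample. By the scan record, Snap25 would stand at -8.16 for the dorsal hemisection, -8.27 for the C-level cord and 4.35 for the culture given S100A8/A9 for 24 h (log2 over the array's 75th percentile). The record and the headings cannot both hold, every direction below rests on the headings, and the values by the record are given with the alternatives. Of 30367 probes, 65.1% to 75.8% per array passed as well above background.

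A neuron loads transmitter into vesicles and releases it when calcium enters the terminal. In the spinal cord, local inhibitory neurons use GABA, glycine or both, and most excitatory interneurons use glutamate. GABA is made from glutamate by the enzymes encoded by Gad1 and Gad2, the vesicular transporter of Slc32a1 loads both GABA and glycine, the membrane transporter of Slc6a5 returns glycine to the terminal, and the vesicular transporters of Slc17a6 and Slc17a7 load glutamate. These RNAs sit mainly in neuron cell bodies, which the cord holds, whereas the sciatic nerve carries axons and the cultures are glial.

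The 250 bases before the transcription start are shown for the transmitter genes with values, since these promoters belong to the genes that mark inhibitory and excitatory neurons. They were taken from a RefSeq promoter table of build GRCr8, which holds 8 of the 10 members, and read 5′ to 3′ on the strand of the gene. Capitals mark 3 short motifs sought on both strands: the E box CANNTG, bound by neuronal helix-loop-helix factors, the GC box GGGCGG and the TATA box TATAAA. The windows lie at chr3:75777202-75777451 on the plus strand for Gad1, chr17:89671468-89671717 plus for Gad2, chr3:167686995-167687244 plus for Slc32a1, chr1:108781303-108781552 plus for Slc6a5 and chr1:110348197-110348446 plus for Slc17a6.
Gad1: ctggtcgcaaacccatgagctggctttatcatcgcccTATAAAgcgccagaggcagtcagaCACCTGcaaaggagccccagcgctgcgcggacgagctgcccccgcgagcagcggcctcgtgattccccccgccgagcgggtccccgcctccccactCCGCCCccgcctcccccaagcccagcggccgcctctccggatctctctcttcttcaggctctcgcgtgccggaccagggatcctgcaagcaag
Gad2: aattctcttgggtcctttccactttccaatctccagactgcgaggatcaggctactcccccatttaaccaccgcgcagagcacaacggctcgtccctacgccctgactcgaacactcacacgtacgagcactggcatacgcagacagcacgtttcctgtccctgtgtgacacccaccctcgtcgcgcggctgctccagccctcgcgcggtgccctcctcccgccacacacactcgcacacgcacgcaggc
Slc32a1: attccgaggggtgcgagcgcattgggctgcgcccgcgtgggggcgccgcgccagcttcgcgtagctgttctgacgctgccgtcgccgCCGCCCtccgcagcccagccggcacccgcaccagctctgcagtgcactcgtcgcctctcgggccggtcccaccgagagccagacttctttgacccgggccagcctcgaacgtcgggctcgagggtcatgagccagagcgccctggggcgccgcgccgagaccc
Slc6a5: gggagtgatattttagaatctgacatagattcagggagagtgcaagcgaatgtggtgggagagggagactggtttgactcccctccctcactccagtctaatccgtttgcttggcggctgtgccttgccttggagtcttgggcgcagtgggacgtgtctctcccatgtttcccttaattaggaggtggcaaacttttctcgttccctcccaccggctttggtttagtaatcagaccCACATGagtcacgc
Slc17a6: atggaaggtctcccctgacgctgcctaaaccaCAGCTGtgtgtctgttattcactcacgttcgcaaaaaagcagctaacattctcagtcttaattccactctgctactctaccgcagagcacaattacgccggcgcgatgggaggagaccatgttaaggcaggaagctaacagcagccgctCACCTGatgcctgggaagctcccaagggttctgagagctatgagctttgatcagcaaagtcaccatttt
An E box stood in the windows of Gad1 (189 bases before the start), Slc6a5 (14 bases) and Slc17a6 (218 and 69 bases), a GC box in those of Gad1 (93 bases) and Slc32a1 (163 bases), and a TATA box in that of Gad1 (213 bases). Of all 33469 promoters in the table, 65.5% held the E box, 30.5% the GC box and 12.9% the TATA box in a window of the same length. The GC content was 68.4% for Gad1, 62.0% for Gad2 and 73.6% for Slc32a1, and 52.4% for Slc6a5 and 50.8% for Slc17a6, with a median of 51.2% over all promoters. Gad1, Gad2 and Slc32a1 held 23, 22 and 34 CpG pairs, against 8 for Slc6a5, 9 for Slc17a6 and a median of 5. These letters describe the windows, and no value here measures binding to them.

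All 7 members with a value were well above background in both cord samples, and 6 of them were at least 2-fold lower in the dorsal hemisection than in the C-level cord; none was at least 2-fold higher. Over all 12032 genes compared, 8.97% were at least 2-fold lower and 9.62% at least 2-fold higher. The median difference of the 7 members was -1.90 on the log2 scale, against -0.05 for all genes. The inhibitory genes Gad1, Gad2 and Slc32a1 and the excitatory Slc17a6 were lower by similar amounts, and Slc6a5 depended on the probe. The median was -1.91 over 4 inhibitory genes, against -1.82 for Slc17a6, the only excitatory member with a value. With 1 array a group there is no test and no animal-to-animal error: the errors below are technical, from the spread of replicate spots at the same signal strength, and the number of arrays limits the precision. With normexp background correction, Gad2 (-0.98) and Syt1 (-0.39) stood inside 2-fold and Slc6a5 at 0.01; Syt1 was also inside it with each matched scan scaled to its 75th percentile (-0.92). In RNA from whole tissue, fewer neurons and less RNA per neuron cannot be told apart.

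**Figure D1:**
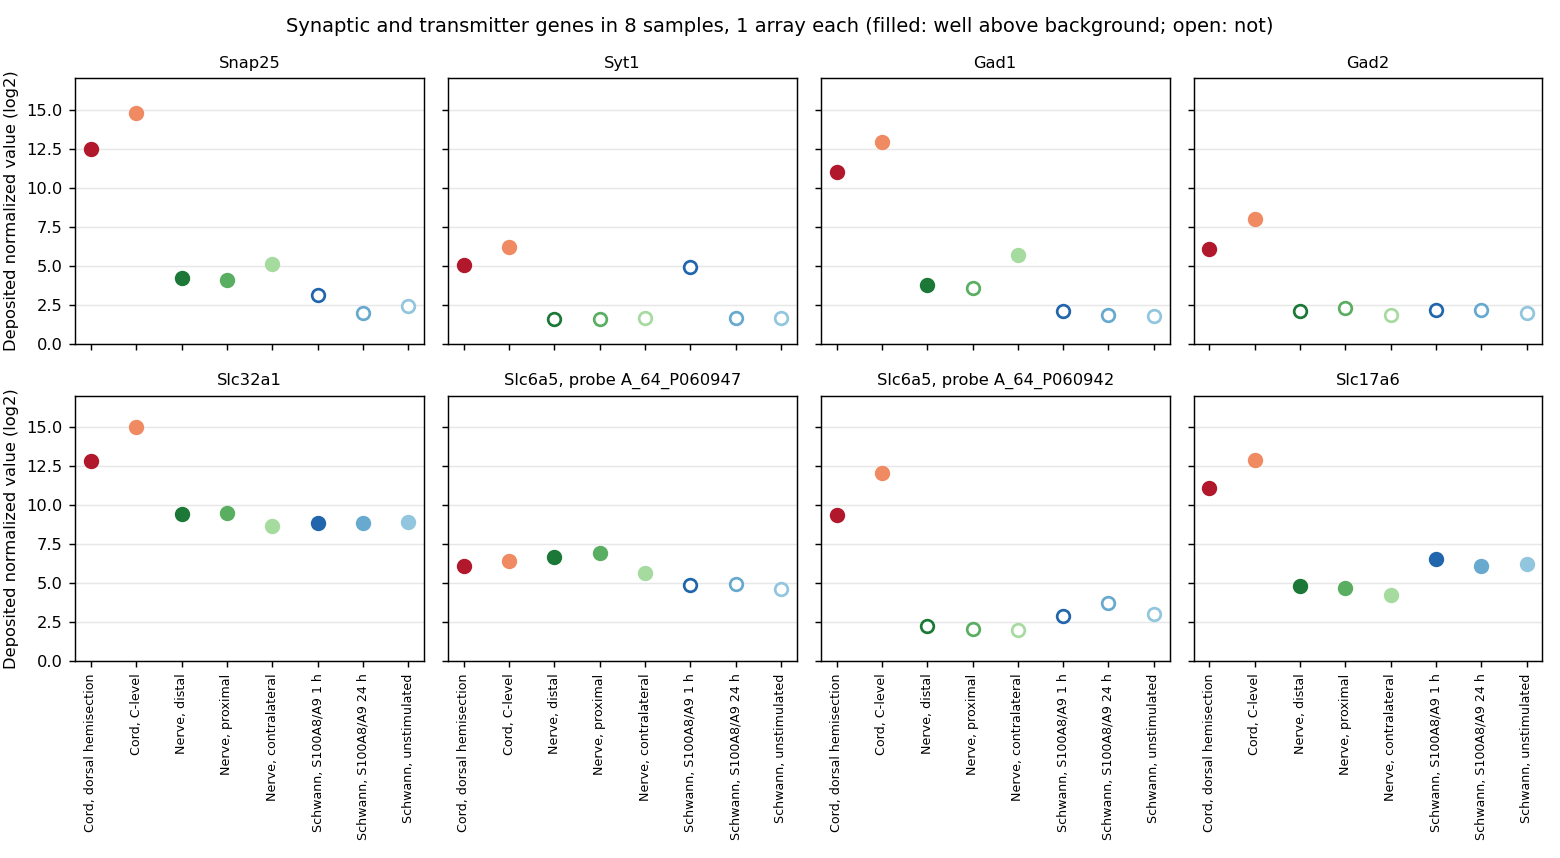
Deposited log2 values (vertical axis) of the 7 members with a value and of the other Slc6a5 probe (A_64_P060942) in each of the 8 samples (horizontal axis); 1 point is 1 array, filled where the probe was well above background. The 2 cord points stand above all nerve and Schwann cell points in every panel except that of Slc6a5 probe A_64_P060947, where both nerve segments are higher.

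Snap25 (NM_030991) encodes a membrane-bound SNARE protein that drives vesicle fusion. Its log2 value was 12.45 in the dorsal hemisection and 14.80 in the C-level cord, a difference of -2.36 ± 0.02 (technical SE, 10 spots an array), or 5.12-fold lower. It was 4.19 in the distal, 4.11 in the proximal and 5.12 in the contralateral nerve. In Schwann cells it was 3.11 at 1 h and 1.98 at 24 h with S100A8/A9 and 2.41 unstimulated, and was not well above background in any of the 3. Every cord value was thus far above every nerve and Schwann cell value, and the gap between the cords was also seen with its other probe, at 10.58 in the dorsal hemisection and 13.37 in the C-level cord (-2.79 ± 0.06).

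Syt1 (NM_001033680), the calcium sensor of fast release, had a dim probe. It read 5.04 in the dorsal hemisection and 6.17 in the C-level cord, a difference of -1.13 ± 0.19. In nerve it was not well above background, at 1.59 distal, 1.57 proximal and 1.62 contralateral. The Schwann cell values were 4.93 at 1 h and 1.63 at 24 h with S100A8/A9, and 1.62 unstimulated. The 1 h value came from 1 of 2 spots, whose processed signals were 133 and 3.85, so it was not counted as above background.

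Gad1 (NM_017007) encodes the larger of the glutamate decarboxylases, which makes most of the GABA in neurons. It read 10.99 in the dorsal hemisection and 12.92 in the C-level cord, a difference of -1.93 ± 0.06, or 3.82-fold lower. The nerve values were 3.80 distal, 3.55 proximal (1 of 2 spots above background) and 5.68 contralateral, and the Schwann cell values were 2.07 at 1 h and 1.82 at 24 h with S100A8/A9 and 1.80 unstimulated, all 3 at background. Cord stood apart from all other samples, and within nerve the contralateral sample was the highest. The other Gad1 probe, with 1 spot, read 4.43 in the dorsal hemisection and 5.55 in the C-level cord (-1.13 ± 0.39), and was at background elsewhere.

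Gad2 (NM_012563), the decarboxylase bound to synaptic vesicles, read 6.09 in the dorsal hemisection and 7.99 in the C-level cord, a difference of -1.90 ± 0.15, or 3.72-fold lower. It was not well above background in the other 6 samples, which ranged from 1.85 to 2.26. By this probe and Gad1 probe A_64_P084971, the 2 decarboxylases differed between the cords by amounts within their technical errors of each other. The other Gad1 probe gave a smaller difference, at -1.13 ± 0.39.

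Slc32a1 (NM_031782), the vesicular transporter shared by GABA and glycine neurons, had 1 spot an array and was above background on all 8 arrays. It read 12.83 in the dorsal hemisection and 14.97 in the C-level cord, a difference of -2.13 ± 0.08, or 4.39-fold lower. The nerve values were 9.42 distal, 9.48 proximal and 8.66 contralateral. The Schwann cell values were 8.86 at 1 h and 8.85 at 24 h with S100A8/A9 and 8.87 unstimulated, a spread far within the technical error. Unlike those of both Gad genes, its probe was thus measured in every nerve and Schwann cell sample, and whether that signal is Slc32a1 RNA was not tested.

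Slc6a5 (NM_203334), the neuronal glycine transporter and the member most particular to glycine neurons, is the gene whose probes disagree. Its probe with the highest mean, A_64_P060947, read 6.06 in the dorsal hemisection and 6.39 in the C-level cord, a difference of -0.33 ± 0.17. The same probe read 6.64 in the distal, 6.89 in the proximal and 5.66 in the contralateral nerve, and 4.86, 4.90 and 4.60 in Schwann cells at 1 h, at 24 h and unstimulated, none of the 3 above background. By this probe both cord values lay below those of the cut nerve's segments and above that of the contralateral nerve. The other probe, A_64_P060942, read 9.37 in the dorsal hemisection and 12.06 in the C-level cord, a difference of -2.69 ± 0.06 or 6.47-fold lower, and 1.98 to 3.70 in the other 6 samples, all at background. By that probe Slc6a5 was measured in cord only among these samples, as Gad2 was, and its gap between the cords exceeded that of Gad2. The probe was picked out after its values were seen, and which of the 2 reports Slc6a5 RNA was not tested.

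Slc17a6 (NM_053427) encodes the vesicular glutamate transporter of most spinal excitatory neurons. It read 11.05 in the dorsal hemisection and 12.87 in the C-level cord, a difference of -1.82 ± 0.03 (10 spots an array), or 3.53-fold lower. Unlike Snap25 and the Gad genes, it was above background on all 8 arrays: it read 4.82 in the distal, 4.67 in the proximal and 4.20 in the contralateral nerve. In Schwann cells it read 6.53 at 1 h and 6.06 at 24 h with S100A8/A9 and 6.21 unstimulated, so that all 3 cultures were above all 3 nerve samples. Whether the signal in nerve and cultures is Slc17a6 RNA was not tested.

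**Figure D2:**
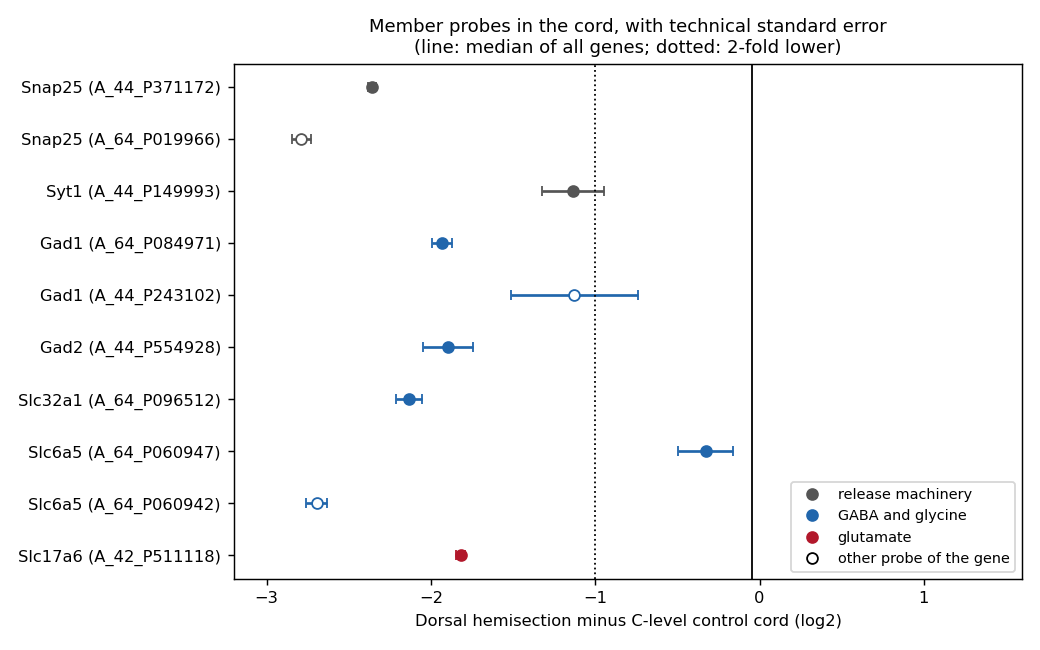
Difference in log2 value between the dorsal hemisection and the C-level cord (horizontal axis) for each member probe, with the technical standard error from replicate spots (1 array a group); filled points are the probes with the highest mean and open points the other probe of the same gene. Every probe except Slc6a5 A_64_P060947 lies beyond the dotted line at 2-fold lower, the dim Syt1 and the other Gad1 probe with errors that reach it.

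The differences of the decarboxylases were then set against that of Slc17a6. The difference of Gad1 was -0.11 ± 0.07 beyond that of Slc17a6 by probe A_64_P084971 and that of Gad2 was -0.08 ± 0.15, both less than 2 technical errors. These errors cover replicate spots and not differences between probes, so they cannot show whether genes moved alike. The dimmer Gad1 probe, A_44_P243102, stood at 0.69 ± 0.39, on the other side of Slc17a6. That of Slc32a1 was -0.32 ± 0.08 beyond it. The probes of Slc6a5 lay on either side, A_64_P060947 at 1.49 ± 0.17 and A_64_P060942 at -0.88 ± 0.07. With the second of these in the inhibitory set, the inhibitory median was -2.03 and stood -0.22 from Slc17a6, against -0.10 with the first. The contrast of the 2 transmitter classes thus depends in size on the Slc6a5 probe, and rests on 1 excitatory gene and 1 array a group.

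Against the contralateral nerve, the dorsal hemisection had 6 of 7 members at least 2-fold higher (15.6% of all genes) and the C-level cord 6 of 7 (17.5% of all genes); none was at least 2-fold lower (16.5% and 19.2% of all genes). Both comparisons share the contralateral nerve. Snap25 was 7.32 ± 0.13 higher in the dorsal hemisection and 9.68 ± 0.13 higher in the C-level cord on the log2 scale. Slc17a6 was 6.85 ± 0.18 and 8.67 ± 0.18 higher, Gad1 5.31 ± 0.30 and 7.24 ± 0.30, and Slc32a1 4.18 ± 0.12 and 6.31 ± 0.12, each in the dorsal hemisection and the C-level cord in this order. Since the nerve value is shared, the 2 gaps of a gene differ by its cord difference given above. Where nerve was at background only a bound can be given, set by the dimmest probe that passed on that array: Gad2 was at least 4.64-fold higher in the dorsal hemisection and 17.3-fold in the C-level cord, and Syt1 at least 2.24-fold and 4.90-fold. Slc6a5 was the member that did not reach 2-fold by its probe A_64_P060947, at 0.40 ± 0.31 in the dorsal hemisection and 0.73 ± 0.33 in the C-level cord, while A_64_P060942 was at least 45.0-fold and 291-fold higher.

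Against unstimulated Schwann cells, 6 of 7 members were at least 2-fold higher in the dorsal hemisection (20.0% of all genes) and 7 of 7 in the C-level cord (22.4% of all genes), with none at least 2-fold lower (24.0% and 26.2%). Both comparisons share that culture. Snap25 was at least 287-fold higher in the dorsal hemisection and at least 1471-fold higher in the C-level cord. For Gad1 the bounds were 105-fold and 399-fold, and for Gad2 3.50-fold and 13.0-fold. Slc17a6 and Slc32a1, which were measured in the cultures, were 4.84 ± 0.09 and 3.96 ± 0.12 higher on the log2 scale in the dorsal hemisection and 6.66 ± 0.09 and 6.09 ± 0.12 higher in the C-level cord. The exception in the dorsal hemisection was Syt1, at least 1.69-fold higher.

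Of 28 other genes of the release machinery, 16 were at least 2-fold lower in the dorsal hemisection and none was higher by that much, with a median difference of -1.11. Rab3a, a small GTPase of synaptic vesicles, read 9.10 in the dorsal hemisection and 11.27 in the C-level cord (-2.16 ± 0.07). Syt5, a vesicle protein related to Syt1, read 11.42 in both cords and 10.55 in unstimulated Schwann cells. In the list of synaptic adhesion and scaffold proteins 3 of 16 were at least 2-fold lower, with a median of -0.54. There Nrxn3, a presynaptic adhesion protein, differed by -1.69 ± 0.06, and Nlgn2, an adhesion protein of inhibitory synapses, by 0.09 ± 0.05 with 1 probe and -0.39 with another. The first Nlgn2 probe read 13.53 in unstimulated Schwann cells, against 13.52 in the C-level cord. Camk2b, a kinase subunit of the postsynaptic side, differed by -1.50 with 1 probe and by 0.27 with another.

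Among receptors for the inhibitory transmitters, 5 of 14 GABA receptor genes were at least 2-fold lower, with a median of -0.90: Gabra5 differed by -2.12 ± 0.24, while Gabrq differed by -0.01 ± 0.06. Gabrq read 10.74 in unstimulated Schwann cells, against 11.88 in the C-level cord. Of 4 genes of GABA uptake and breakdown, 1 was at least 2-fold lower, with a median of -0.44. Abat, which degrades GABA, differed by -0.53 ± 0.09 and the transporter Slc6a13 by 0.19 ± 0.07. Of 5 genes of glycine receptors and uptake, Glrb, the subunit that anchors the receptor at the synapse, was at least 2-fold lower (-1.40 ± 0.18), while Glra3 differed by -0.88 ± 0.27 and Glra1 by -0.37 ± 0.10.

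Among receptors for glutamate, 6 of 8 AMPA and kainate receptor genes (median -1.30), 4 of 6 NMDA receptor genes (median -1.16) and 3 of 8 metabotropic receptor genes (median -0.88) were at least 2-fold lower. Gria4 differed by -2.18 ± 0.03 with 1 probe and -0.70 with another, Gria3 by -1.53 ± 0.06 with 1 probe and -0.98 with another, and the kainate receptor gene Grik5 by 0.29 ± 0.06. Grin2a differed by -1.33 ± 0.18, Grin3b by -1.30 ± 0.08 and Grin2d by 0.02 ± 0.05. Among metabotropic receptors, Grm8 differed by -2.52 ± 0.18, Grm3 by -2.28 ± 0.11 and Grm2 by 0.15 ± 0.07. The probes of Grin2d, Grik5 and Grm2 read 15.73, 12.97 and 10.11 in the C-level cord. In unstimulated Schwann cells they read 15.73, 13.11 and 9.98, and whether their cord signal is neuronal RNA was not tested. Of 8 genes of glutamate supply and uptake, some of them astrocytic, 2 were at least 2-fold lower, with a median of -0.25: the glutaminase gene Gls2 differed by -1.79 ± 0.06, and Glul, the glutamine synthetase of astrocytes, by 0.02 ± 0.05.

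Markers of neuron classes and of neurons in general were compared in the same way. Of 9 genes of inhibitory interneurons 3 were at least 2-fold lower, with a median of -0.42: the transcription factor gene Lhx1 differed by -1.73 ± 0.18, the calcium buffer Pvalb by -1.58 ± 0.05 and the dynorphin precursor Pdyn by -0.03 ± 0.07. Of 10 genes listed for excitatory dorsal interneurons 4 were at least 2-fold lower, with a median of -0.91. Not every gene of this list, Lbx1 among them, is particular to excitatory neurons. The neuropeptide gene Nts differed by -1.76 ± 0.11, the transcription factor gene Lbx1 by -1.62 ± 0.18 and the matrix protein gene Reln by 0.04 ± 0.07. The transcription factor gene Maf, named after its value was seen, was the one gene of this list at least 2-fold higher (1.35). Which cells the Maf RNA came from was not tested. Of 17 general neuron genes 10 were at least 2-fold lower, with a median of -1.04: Dnm1, which pinches off vesicles, differed by -2.39 ± 0.10, the RNA-binding Elavl4 by -1.72 ± 0.06 and the neurofilament gene Nefh read 13.19 in both cords. Of 5 cholinergic genes 3 were at least 2-fold lower, with a median of -1.05: the choline transporter Slc5a7 differed by -1.71 ± 0.07, the esterase Ache by -1.40 ± 0.07 and the axonal filament gene Prph by -0.10 ± 0.06. In unstimulated Schwann cells Reln read 10.82, against 9.71 in the C-level cord, while Pdyn, Nefh and Prph were at background in those cells.

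**Figure D3:**
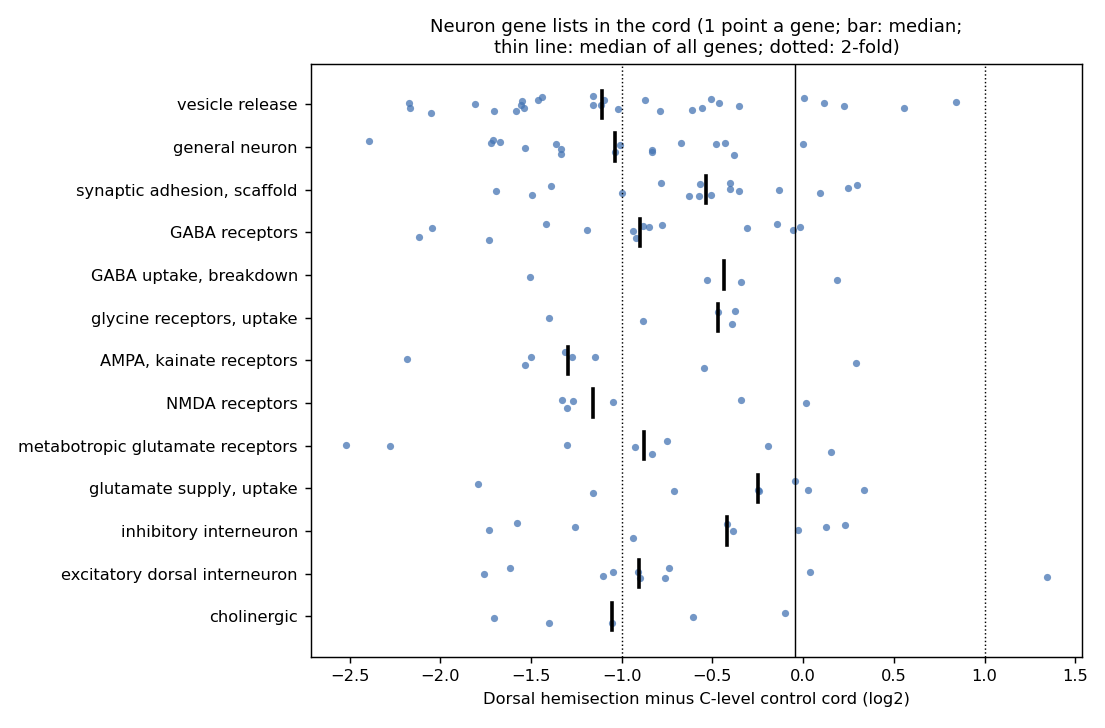
Differences in log2 value between the dorsal hemisection and the C-level cord (horizontal axis), 1 point a gene, for 13 lists of neuron genes other than the 10 described (rows); black bars are list medians, the thin line is the median of all genes and dotted lines mark 2-fold. The medians run from -1.30 for AMPA and kainate receptors to -0.25 for glutamate supply and uptake, and 1 gene, Maf, lies beyond 2-fold higher.

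Markers of other cell types moved in the same comparison. Microglia and macrophage markers were at least 2-fold higher in the dorsal hemisection for 8 of 10 genes, with a median difference of 1.41 and median log2 levels of 13.74 in the dorsal hemisection and 12.09 in the C-level cord. Schwann cell markers were higher for 6 of 9 (median 1.71, levels 12.51 in the dorsal hemisection and 9.79 in the C-level cord) and fibroblast markers for 6 of 7 (median 2.13, levels 14.17 and 11.49). Astrocyte markers had 2 of 9 at least 2-fold lower (median -0.41), oligodendrocyte markers 2 of 11 (median -0.42), ependymal markers 1 of 5 (median -0.50) and endothelial markers none of 7 in either direction (median 0.41). Skeletal muscle genes were at least 2-fold lower for 5 of 7 (median -1.77, levels 7.44 and 9.10), erythroid genes for none of 5 and sensory neuron genes for none of 6. The oligodendrocyte and the Schwann cell list share 1 gene, and no list had all its genes at background in either cord. The part of these markers in the lower synaptic values was not tested, and a shift in cell types and a change within neurons cannot be told apart.

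**Figure D4:**
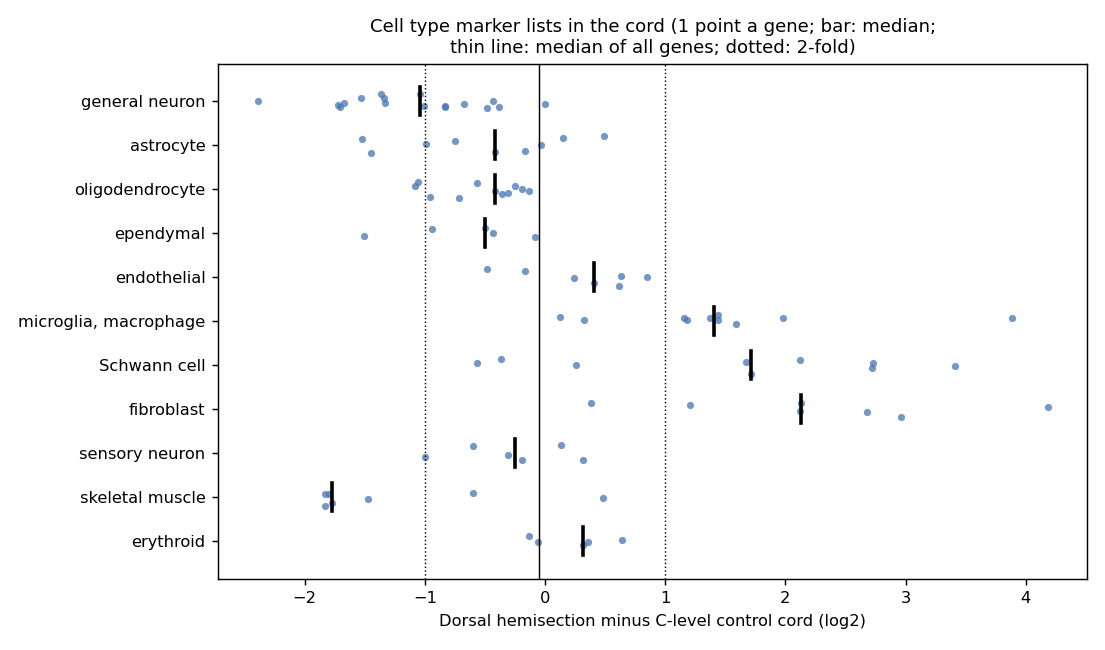
Differences in log2 value between the dorsal hemisection and the C-level cord (horizontal axis), 1 point a gene, for general neuron genes and for markers of 10 other cell types (rows); black bars are list medians, the thin line is the median of all genes and dotted lines mark 2-fold. Macrophage, Schwann cell and fibroblast medians lie at 1.41, 1.71 and 2.13, above 2-fold, and the neuron median at -1.04.

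In the nerve, 5 of the 7 members could be compared with the contralateral side. In the distal segment Gad1 was at least 2-fold lower (14.1% of all genes were) and no member at least 2-fold higher (12.7% of all genes). In the proximal segment Gad1 and Snap25 were at least 2-fold lower (11.7% of all genes) and Slc6a5, by probe A_64_P060947, at least 2-fold higher (10.5% of all genes). Both segments share the contralateral nerve. Gad1 differed by -1.89 ± 0.35 in the distal segment and at least 4.39-fold lower in the proximal one. Snap25 differed by -0.94 ± 0.16 distally and -1.01 ± 0.16 proximally, so that its distal value stood just inside 2-fold and its proximal value just outside. With normexp background correction neither gene was 2-fold lower in either segment, and in the proximal one Snap25 stood at 0.61 and Gad1, at background there, read 0.37. Slc32a1 was 0.76 ± 0.12 and 0.82 ± 0.13 higher, Slc17a6 0.62 ± 0.20 and 0.48 ± 0.20 higher and Slc6a5 0.98 ± 0.31 and 1.23 ± 0.32 higher, each distally and proximally in this order.

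Among the 28 release genes, 21 were measured in the distal segment, of which 3 lay 2-fold or more above the contralateral nerve and 7 lay that far below it (median -0.32); in the proximal one 1 of 20 was above and 6 were below (median -0.31). Rab3a differed by -2.52 ± 0.21 distally and -1.79 ± 0.18 proximally. It read 6.80 in unstimulated Schwann cells, against 7.24 in the contralateral nerve. Syt4, a member of the synaptotagmin family, was named after its values were seen: it read 7.68 in the distal and 7.43 in the proximal segment and 3.70 at background in the contralateral nerve, at least 3.81 and 3.55 higher on the log2 scale, by probe A_44_P761505. Its other probe, A_43_P12638, was at background on all 3 nerve arrays, and in the cord the probes differed in sign, at -0.56 and 0.49. General neuron genes were at least 2-fold lower for 5 of 13 distally (median -0.82) and 3 of 13 proximally (median -0.38). Of their list, Uchl1 read 15.11, Nefm 12.85 and Tubb3 11.60 in unstimulated Schwann cells, while Nefh, Scn8a, Kif5a and Dnm1 were at background there. Which cells of the nerve gave the signal of this list was not tested. In the same comparisons, skeletal muscle genes were at least 2-fold higher for 5 of 6 distally (median 1.72) and for 7 of 7 proximally (median 4.94), and Schwann cell markers at least 2-fold lower for 7 of 9 distally (median -1.81) and 4 of 9 proximally (median -0.94). Their part in the members' values was not tested.

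In Schwann cells, Slc32a1 and Slc17a6 were the members above background, and neither reached 2-fold at either time. Slc32a1 differed by -0.01 ± 0.14 at 1 h and -0.02 ± 0.14 at 24 h from the unstimulated culture, and Slc17a6 by 0.32 ± 0.12 and -0.15 ± 0.12. Of all genes, 1.40% were higher by 2-fold or more at 1 h and 1.11% lower, with 0.289% higher and 0.298% lower at 24 h. Both times share the unstimulated culture, which is of 24 h.

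The genes whose pattern over the 8 columns was most like that of the members were sought among 12758 others, each centred on its own mean, by the root mean square (RMS) difference in log2 value. Prkar1b, a regulatory subunit of protein kinase A, came closest to the mean of the 4 inhibitory members, at an RMS of 0.22. It was followed up to 0.36 by Asic1, Bex1, Rab3b, St8sia3, Slc6a15, Ddx25 and Rufy3. Closest to Slc17a6 were Cacng2, a subunit that traffics AMPA receptors, at 0.42, and Syt2, Nppc, Dync1i1, Nptx1, Ache, Gpr158 and Sorcs3 up to 0.66. The mean of Snap25 and Syt1 was matched less closely, from 0.61 to 0.67, by Rasd2, Map7, Tmem179, Vom2r15, B3gat2, Nat8l, Fbxo2 and Slitrk3. These genes were chosen over all 8 columns, both cords included, so the choice sets the direction of their cord differences. The dorsal hemisection differed from the C-level cord by -1.66 for Bex1 and -0.55 for Rab3b at the ends of the inhibitory set, and by -1.90 for Nat8l and -0.78 for Map7 at the ends of the release set. At the ends of the excitatory set, Dync1i1 read 12.04 in the dorsal hemisection and 14.04 in the C-level cord, and Nptx1 differed by -0.89. The mean of the inhibitory set includes Slc6a5 by its probe A_64_P060947.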

How the data were processed

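The deposited value table holds the authors' log2 values, with equal quartiles in all 8 columns; how it was normalized and how its 24894 probes were chosen is not stated in the sources. The deposited scanner files give linear spot intensity; per the file headers, Agilent Feature Extraction 10.7.3.1 subtracted background (10.5 per the submitters' processing notes), for 1 slide with grid build rn4. Values were taken by column heading. Background flags and spot errors came from the scan each column ranks with, and a probe counted as well above background where most of its spots were flagged so. Gene symbols came from RefSeq through the probes' accessions, for 18006 of 30367 probes, with versions ignored.

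Each comparison was the difference of 2 columns over genes well above background in at least 1 of them, called at 2-fold. Where 1 side was at background, the higher of its value and the dimmest above-background value of that array gave a bound. With 1 array a group no test was possible. The technical SE combined the pooled spot SD of probes of like signal (10 bins) in each array, divided by the root of its spots. The procedure was tested on simulated data. Named genes were all members, the 2 largest and the smallest absolute cord differences of each neuron list, and the 8 nearest patterns per set; some genes that this rule picks are not reported here. The members and lists were chosen with earlier results of these data known.

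Alternatives were the matched and the recorded scans scaled to the 75th percentile, normexp (limma 3.58.1, R 4.3.3, offset 50, on median signals since no mean signal was given), the mean of a gene's probes, stricter and no filters, and all probes. The other Slc6a5 probe was added after seeing the data. Python 3.11.15 with numpy 2.4.6, pandas 2.3.3, scipy 1.17.1 and matplotlib 3.10.9 was used.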

Additional observations from a re-analysis of the deposited data

How the results depend on the processing

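Taking the scans under the samples they are recorded for ended or turned most results; the sources do not settle which pairing is right. By the record, the dorsal hemisection differed from the C-level cord by 0.0398 for Slc32a1 and 0.20 for Slc17a6, the other members could not be measured, and so the inhibitory median was 0.0398 and the excitatory 0.20. No member and 53 genes higher and 36 lower then reached 2-fold in the cord. List medians were 0.0261 for vesicle release, 0.0062 for general neuron genes, -0.0434 for macrophages, -0.0143 for Schwann cells, -0.20 for fibroblasts and 0.0329 for muscle. Against the contralateral nerve, 0 members were 2-fold higher and 7 lower in each cord. The differences as read were: Snap25 -10.39 in the dorsal hemisection and -10.49 in the C-level cord, Syt1 -4.24 and -4.14, Gad1 -9.31 and -9.20, Gad2 -4.90 and -4.77, Slc32a1 -3.91 and -3.95, Slc17a6 -5.18 and -5.37. Against unstimulated Schwann cells 0 were higher and 1, Slc6a5, lower in each, and the differences as read were Snap25 -2.48 and -2.58, Slc32a1 -0.72 and -0.76, Slc6a5 -2.95 and -2.64. By the record Snap25, Syt1, Gad1, Gad2 and, against Schwann cells, Slc6a5 were at background in both cords, so these readings give a direction and no size. The counts rest on their bounds: against the contralateral nerve, in the dorsal hemisection and the C-level cord, at least 396-fold and 374-fold lower for Snap25, 4.08-fold and 3.85-fold for Syt1, 152-fold and 144-fold for Gad1 and 7.60-fold and 7.18-fold for Gad2; against Schwann cells, at least 1.65-fold and 1.56-fold for Snap25 and 7.72-fold and 6.24-fold for Slc6a5. In nerve 6 members were lower in each segment, 0 were higher proximally, and Slc6a5 stood at -2.43 there, at background in that segment (at least 5.38-fold lower). In Schwann cells 1 was higher and 1 lower at 1 h and 6 higher at 24 h. Outside the comparison of the cords, the shares of all genes by the record are not given here. These member counts therefore cannot be set against them.

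The other settings kept the direction of every member difference that had reached 2-fold, except that normexp turned Snap25 (0.61) and Gad1 (0.37) in the proximal nerve, where Gad1 was at background and has no size. Normexp, which compresses dim probes, called 725 genes higher and 396 lower in the cord, against 1158 and 1079, gave an inhibitory median of -1.37, and left 0 members lower in either nerve segment; the cause was not tested. The matched scans, also with all probes, gave 2 members lower distally and 1 proximally. The mean of a gene's probes gave 0 lower in either segment and 0 higher proximally. Asking for both arrays above background left 2 members higher in each cord against Schwann cells and 1 lower in the proximal nerve. No filter added 1 higher in Schwann cells at 1 h (Syt1), and the other Slc6a5 probe left 0 higher proximally. In the cord, members at least 2-fold lower numbered 5 by the matched scans, 4 by normexp, 7 by the mean of probes and 7 with the other Slc6a5 probe, against 6. The median of all genes in the cord was 0.06 under normexp, against -0.05. Apart from the cord under normexp, shares of all genes were not set beside the member counts of these settings. No paired analysis was possible because each group holds 1 array. Dim probes (Syt1, Gad2 in nerve and cultures) allow bounds only.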

Other observations

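Sensory neuron genes, whose cell bodies lie in the dorsal root ganglia and not in the sampled nerve, were compared in the same way. Of 6 measured, 4 were at least 2-fold lower in the distal segment than in the contralateral nerve (median -1.63) and 3 in the proximal one (median -1.23), against 14.1% and 11.7% of all genes. Schwann cell and myelin genes were at least 2-fold lower for 7 of 9 distally (median -1.81) and 4 of 9 proximally (median -0.94), and skeletal muscle genes at least 2-fold higher for 5 of 6 distally (median 1.72) and 7 of 7 proximally (median 4.94). Their part in the sensory gene values was not tested. The sodium channel gene Scn9a read 4.88 in the distal and 5.66 in the proximal segment and 7.78 in the contralateral nerve, and the purinergic receptor gene P2rx3 read 6.48 and 6.49 in the segments and 8.18 contralaterally. In unstimulated Schwann cells Scn9a read 7.34 and P2rx3 8.03. Which cells of the nerve their signal came from was not tested. Calca, the precursor gene of calcitonin and of the sensory peptide CGRP, was picked out after its values were seen. In Schwann cells it read 13.41 at 1 h with S100A8/A9 and 10.81 unstimulated, a difference of 2.60 ± 0.06 by probe A_64_P018766, with 1 array each. The other Calca probe, A_64_P018761, differed by 2.46 at 1 h. At 24 h with S100A8/A9 the first probe read 10.52. The unstimulated culture is of 24 h, so treatment and time in culture cannot be told apart at 1 h. In the cord the probes disagreed: the first read 12.27 in the dorsal hemisection and 12.87 in the C-level cord, and the second 8.49 in the dorsal hemisection and 2.55, at background, in the C-level cord. Syt4 moved the other way in Schwann cells, at 6.52 at 1 h and 7.60 unstimulated, a difference of -1.08 ± 0.23 by probe A_44_P761505. This probe read 8.06 at 24 h with S100A8/A9, and the other Syt4 probe was at background in every Schwann cell sample.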
